A study of Mus musculus with 6 samples.

Results

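The genes that encode the proteins of the cytosolic ribosome were described in germinal vesicle (GV) oocytes, eggs that have not yet resumed meiosis. Members were taken by symbol: Rpl or Rps followed by a number and at most a short suffix, together with Rpsa, Rplp0, Rplp1 and Rplp2, leaving out rows marked as pseudogenes by -ps and the kinase genes named Rps6k. The rule found 89 of the 49315 genes counted, 53 of the large subunit and 36 of the small subunit. The filter on low counts kept 87 of them, 52 large and 35 small. The muscle paralogue Rpl3l and the pseudogene Rps12l1 had 0 counts in all 6 libraries. The GENCODE annotation gives 6 members as pseudogenes in spite of their symbols (Rpl32l, Rpl6l, Rps12l1, Rps3a2, Rps3a3 and Rps4l). A few proteins of the ribosome have other symbols and lie outside the rule, among them Rack1, Fau and Rpl36al.

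The series asks what RPA1, the large subunit of the single-stranded DNA binding protein RPA, does in DNA repair during oogenesis. RNA was sequenced from GV oocytes of 3 Control mice and of 3 mice with an oocyte-specific conditional knockout of Rpa1 (Rpa1 OcKO). All animals were 4 to 5 weeks old and primed with pregnant mare serum gonadotropin (PMSG), and each library was made from about 20 fully grown oocytes with no cumulus cells. The Cre driver, the exons removed and the Control genotype were not given in the sources used here. In such bulk libraries, fewer cells with a transcript and less of it per cell cannot be told apart.

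Cytosolic ribosomal proteins assemble with ribosomal RNA in the nucleolus into a small subunit, which reads the message, and a large subunit, which joins the amino acids. Most cells make all of them at matched amounts, and many of their messages begin with a terminal oligopyrimidine (TOP) tract, through which their translation is regulated as a group. A growing oocyte builds a large store of ribosomes for the embryo and then shuts down transcription around the fully grown stage.

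Library quality is given here once, for all results. Total counts per library were 36280148 to 44575222. Rpa1 was at 156, 155 and 140 CPM (counts scaled to library size) in the Control libraries and at 7.76, 4.14 and 6.84 CPM in the OcKO libraries, so each library matched its label. Each of the 16 oocyte markers checked was above 1 CPM in at least 1 library. Markers of granulosa and cumulus cells summed to 121, 82.9 and 83.5 CPM in Control and 141, 116 and 159 CPM in OcKO, with 12 of the 17 above 1 CPM in at least 1 library. Within that list Nr5a2 was at 11.9 to 43.7 CPM, Inha at 9.94 to 44.5, Cyp19a1 at 9.26 to 33.7 and Gja1 at 5.80 to 13.5, while Ptx3 was at 0 everywhere and Foxl2 reached at most 0.0551 CPM; no marker of the list was called by edgeR. Mitochondrially encoded genes held 0.0670% to 0.0807% of counts in Control and 0.155% to 0.188% in OcKO. Genes with a count numbered 18330 to 19351 in Control and 19915 to 22393 in OcKO. The mitochondrial share and the number of genes detected did not overlap between groups, the sums of granulosa markers did, and the part of any of them in the results on ribosomal protein genes was not tested.

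Promoters are shown first for 4 members on which the results turn: Rps3a1, which had the smallest p of all members, Rps27l and its parent Rps27, and Rpl10l, which was almost absent from Control. Each line gives the 90 bases before the annotated start and the 20 bases from it, on the gene's own strand, from RefSeq on GRCm38. Capitals mark the letters CCGGAAG, the core that factors of the ETS family bind, and a run of at least 8 C or T within 10 bases of the start.
Rps3a1, chr3:86142649-86142758, minus strand: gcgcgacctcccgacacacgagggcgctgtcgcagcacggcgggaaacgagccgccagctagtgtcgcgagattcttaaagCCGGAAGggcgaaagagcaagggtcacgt
Rps27, chr3:90213629-90213738, minus strand: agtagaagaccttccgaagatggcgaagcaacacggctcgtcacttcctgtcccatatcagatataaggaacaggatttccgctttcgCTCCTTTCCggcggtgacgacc
Rps27l, chr9:66945996-66946105, plus strand: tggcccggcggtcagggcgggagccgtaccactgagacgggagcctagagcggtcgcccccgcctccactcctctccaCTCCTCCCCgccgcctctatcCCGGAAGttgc
Rpl10l, chr12:66284382-66284491, minus strand: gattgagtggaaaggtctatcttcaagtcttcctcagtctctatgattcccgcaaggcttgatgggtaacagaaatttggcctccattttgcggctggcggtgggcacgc
Rps27 and Rps27l each had a pyrimidine run of 9 bases near the start, and Rps3a1 and Rps27l each had the ETS letters once in these windows. The window of Rpl10l had neither. Over the whole family, a RefSeq promoter of 250 bases before and 50 bases from the start was matched for 64 members. A pyrimidine run near the start was found in 28 of these 64 (43.8%) and in 13.7% of all 19678 promoters. The start base itself was C in 22 members (34.4%) and in 14.0% of all promoters. CCGGAAG, searched on both strands, was in 25 members (39.1%) and in 11.2% of all promoters. GGGCGG, the letters bound by SP1, was in 38 members (59.4%) against 43.9% of all. AAGATGG, letters bound by YY1, was in 9 members (14.1%) against 6.42%, and the TATA box letters TATAAA were in 7 (10.9%) against 13.0%; both were searched on both strands, as was GGGCGG. A match describes the letters only.

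Counts were scaled between libraries by TMM, which sets the bulk of genes to a common level, and tested by edgeR (quasi-likelihood), with p-values adjusted over all tested genes by the Benjamini-Hochberg method. SE is the standard error of a log2 fold change. Most ribosomal protein transcripts were somewhat more abundant in OcKO oocytes than in Control, but no member passed the test taken alone, and OcKO replicate 3 carried much of the difference. The median log2 fold change (log2FC, OcKO over Control) of the 87 tested members was 0.28, against 0.01 over all 16060 tested genes, and 64 of the 87 were above 0 (50.8% of all genes were). Without OcKO replicate 3 the median was 0.11, and 52 were above 0. The middle 50% of members lay between -0.01 and 0.57. No member was called at an edgeR adjusted p under 0.05, where 0.143% of all tested genes were called, 0.137% higher and 0.00623% lower. At an unadjusted edgeR p under 0.05, 14 members were higher and 0 were lower, against 5.93% and 5.21% of all genes. For 22 of the 87 members every OcKO value exceeded every Control value, against 10.7% of all genes, and for 2 every OcKO value was below, against 8.67%. Rpl10l is among the 14 and among the 22, but it passed the filter on low counts only through the OcKO libraries. Its separation is therefore not independent of that filter, here and in the counts of large subunit genes.

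DESeq2 called 7 members, all higher: Rps3a1, Rps19, Rps27l, Rpl24, Rpsa, Rpl15 and Rpl7 (DESeq2 adjusted p from 2.36e-15 to 0.0388). It called 4.39% of all genes it tested higher and 2.24% lower. The voom test of limma called 0 members and 0.00623% of all genes. Scaling by library size alone, which raised the median of all genes from 0.01 to 0.18, left the members' median at 0.46 and 79 members above 0.

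**Figure D1:**
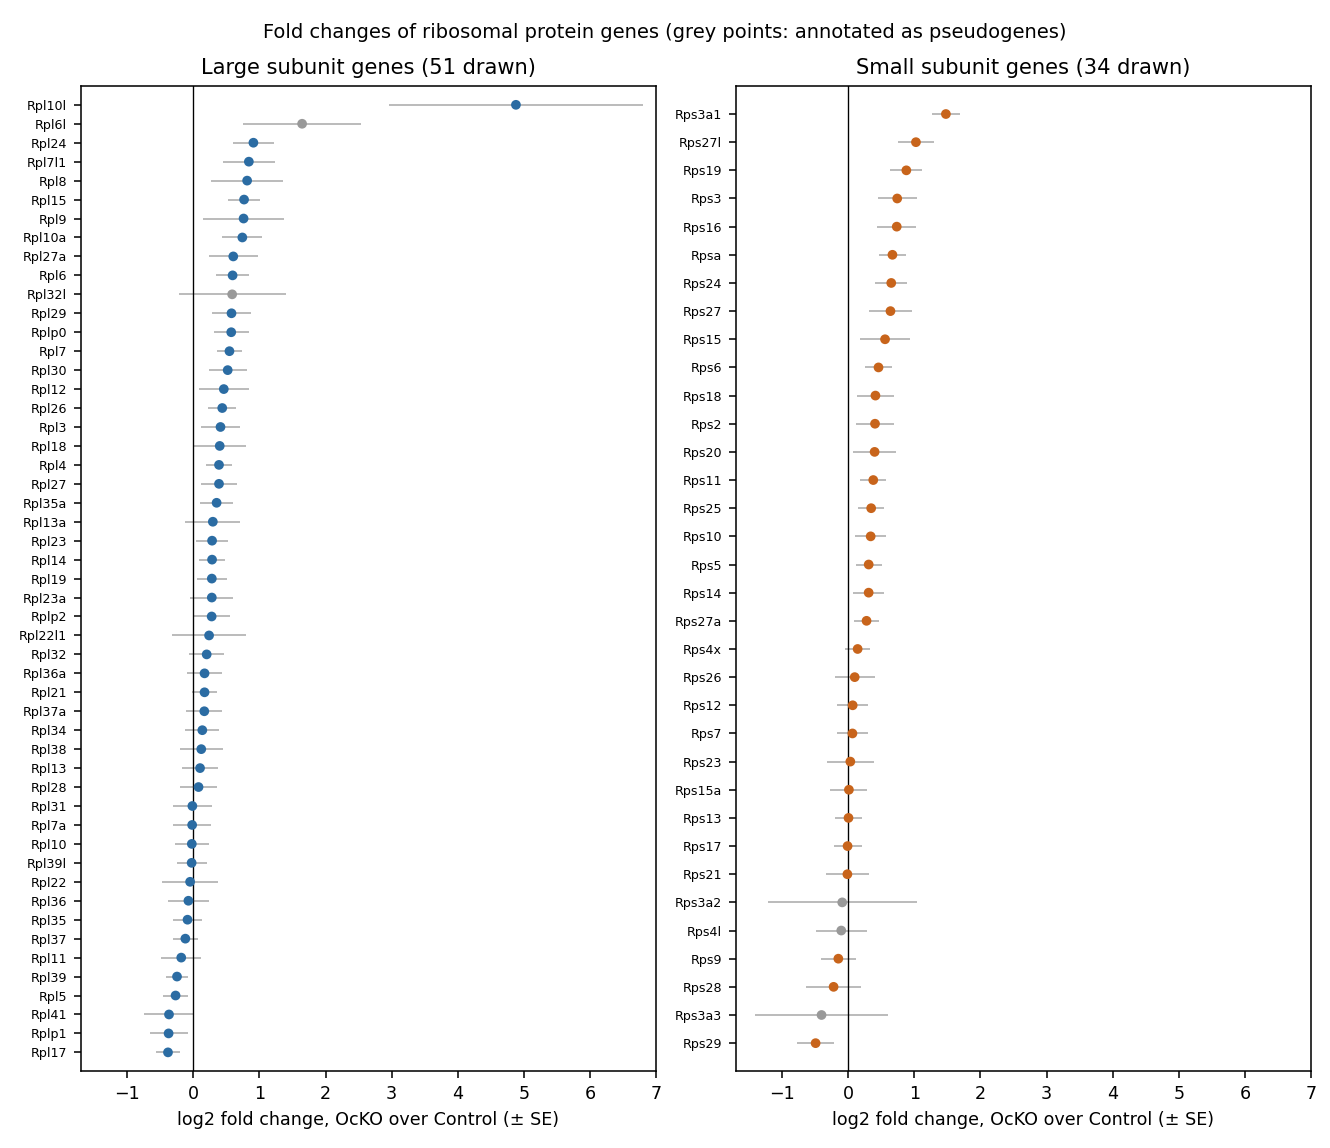
Log2 fold change, OcKO over Control, of tested members with its standard error, for large subunit genes (left) and small subunit genes (right); grey points are annotated as pseudogenes. Most points lie to the right of 0 in both panels, from -0.49 for Rps29 to 4.88 for Rpl10l, and 64 of the 87 tested members were above 0; members not reported here are not drawn.

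Large and small subunit genes were close to each other in this shift. The median log2FC was 0.28 for large subunit genes, with 37 of 52 above 0. It was 0.31 for small subunit genes, with 27 of 35 above 0. Over all tested genes, 50.8% were above 0. An unadjusted edgeR p under 0.05 was reached by 6 large and 8 small subunit genes, all higher in OcKO, against 5.93% of all genes. Libraries did not overlap, with OcKO higher, for 11 large (21.2%) and 11 small (31.4%) subunit genes, against 10.7% of all genes. The 2 members with OcKO lower, Rpl17 and Rpl39, both belong to the large subunit. They are 3.85% of its genes, a smaller share than the 8.67% of all genes. Rpl17 and Rpl39 also both sit at the rim of the tunnel through which the new peptide leaves. Of the 9 tested genes of that rim, with Rpl17 and Rpl39 among them, 4 were above 0 and the median was -0.01. Rpl26, also of the rim, had every OcKO library above every Control (log2FC 0.44). The 14 proteins of the head of the small subunit had a median of 0.34 with 11 above 0.

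The balance of the subunits by count moved a little. The summed counts of large subunit genes divided by those of small subunit genes gave 1.82, 1.95 and 1.81 in Control and 1.74, 1.59 and 1.60 in OcKO. The OcKO libraries lay below every Control library. Rpl5 and Rpl41, which are abundant and did not share the shift, weigh on this ratio. Without both, it was 1.501, 1.46 and 1.45 in Control and 1.43, 1.31 and 1.39 in OcKO, and the libraries still did not overlap.

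The 3 OcKO libraries did not contribute alike. All members together held 0.648%, 0.709% and 0.704% of counts in Control, and 0.786%, 0.730% and 1.10% in OcKO replicates 1, 2 and 3. All 3 OcKO shares were above the highest Control share before TMM scaling. With TMM-scaled libraries the sums were 6740, 7745 and 7424 CPM in Control and 7574, 7154 and 9782 CPM in OcKO, and only OcKO replicate 3 lay above all Controls.

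Gene by gene, the median log2 difference of the members from the Control mean was 0.14 in OcKO replicate 1, 0.13 in OcKO replicate 2 and 0.55 in OcKO replicate 3. The same medians over all tested genes were 0.00, 0.09 and 0.03. In OcKO replicate 3, 81 of the 87 members were above the Control mean (51.4% of all genes), and in OcKO replicates 1 and 2, 55 and 47 were (50.1% and 55.1%). OcKO replicate 3 was the highest of the 6 libraries for 63 of the 87 members, against 16.9% of all genes. The Control libraries, each set against the mean of the other Control libraries, had member medians from -0.12 to 0.07. Both subunits shared the pattern, at 0.51 for large and 0.57 for small subunit genes in OcKO replicate 3.

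**Figure D2:**
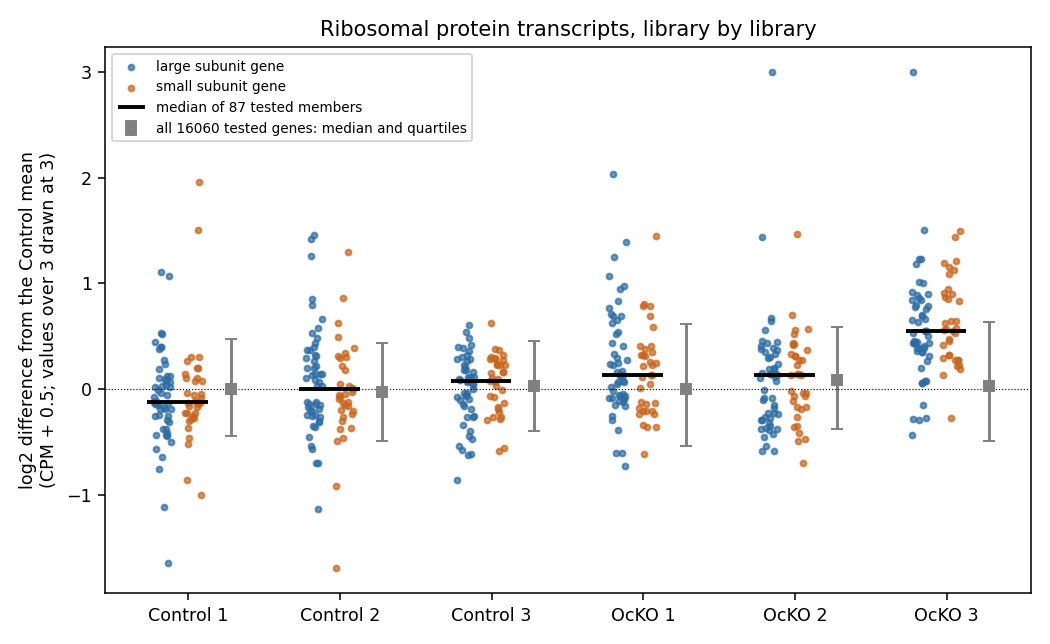
Log2 difference of each tested member from the Control mean in each library, with large subunit genes in blue and small subunit genes in orange. For a Control library the mean is that of the other Control libraries. Black bars are medians of the 87 members, and grey squares and bars are the median and quartiles of all 16060 tested genes. OcKO replicate 3 stands at a median of 0.55, above 0.14 and 0.13 in the other OcKO libraries; values over 3, those of Rpl10l, are drawn at 3.

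Without OcKO replicate 3, the median of 0.11 stood against 0.01 over all genes. At an unadjusted edgeR p under 0.05, 6 of the 87 members were then higher, a share near that of all genes (5.51%). In that comparison 23 members lay above all Controls and 11 below, against 15.5% and 12.7% of all genes. OcKO replicate 3 also had the largest mitochondrial share of counts (0.188%) and the largest sum of granulosa markers (159 CPM); the part of either in its ribosomal protein counts was not tested.

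Rps3a1 (ENSMUSG00000028081, chr3:86137940-86142702, minus strand) had the smallest p of the family. It encodes eS1, a protein of the small subunit platform near the site where the message leaves. Its level was 30.1, 29.7 and 36.8 CPM in Control and 88.4, 89.4 and 91.1 CPM in OcKO. The groups were far apart and the 3 OcKO libraries nearly equal, so OcKO replicate 3 does not stand out for this gene. The log2 fold change was 1.48 (SE 0.21, fold 2.79, edgeR adjusted p = 0.0694), which narrowly missed the threshold. It passed with library size alone (edgeR adjusted p = 0.0459), with genes of at least 5 CPM (0.0239) and with DESeq2 (2.36e-15), but not with voom (0.182), DESeq2 size factors in edgeR (0.0688), no filter (0.0722) or the replicate block (0.481). With each library left out in turn, its log2 fold change stayed between 1.43 and 1.60, at edgeR adjusted p of 0.160 to 0.327.

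Copies of Rps3a1 limit this count. Of the 50-base windows of its transcript, 71.0% also occur in transcripts of 10 other genes, and how reads with several matches were counted is not given in the sources used here. Its pseudogene Rps3a3 (ENSMUSG00000059751) was at 4.94, 0.501 and 1.44 CPM in Control and 1.51, 1.45 and 2.24 CPM in OcKO. Rps3a2 (ENSMUSG00000062611) was at 1.27, 0.0791 and 0.173 CPM in Control and 0.388, 0.572 and 0.468 CPM in OcKO. For both, Control replicate 1 was the highest library and the groups overlapped. Summed over Rps3a1, Rps3a2 and Rps3a3, the level was 36.3, 30.3 and 38.4 CPM in Control and 90.3, 91.4 and 93.8 CPM in OcKO. The 3 rows together differed between groups as Rps3a1 alone did, with no overlap.

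Rps27l (ENSMUSG00000036781, chr9:66946086-66949516) encodes a close relative of the zinc-binding protein RPS27 and is known as a target of p53. It was at 39.7, 33.0 and 31.1 CPM in Control and at 60.6, 56.2 and 94.4 CPM in OcKO. All OcKO libraries were above all Controls, with OcKO replicate 3 the highest. The log2 fold change was 1.02 (SE 0.28, edgeR adjusted p = 0.204), and 0.75 without OcKO replicate 3. Rps27 (ENSMUSG00000090733) was at 21.5, 29.7 and 29.99 CPM in Control and at 35.6, 33.3 and 57.5 CPM in OcKO, also with no overlap (log2FC 0.64, SE 0.32, edgeR adjusted p = 0.531). Paralogue and parent were thus both higher in every OcKO library than in any Control.

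Rps19 (ENSMUSG00000040952, chr7:24884371-24889806), a protein of the head of the small subunit needed to mature its ribosomal RNA, was at 47.7, 41.9 and 40.8 CPM in Control and 75.1, 64.7 and 99.96 CPM in OcKO. Its log2 fold change was 0.88 (SE 0.24, edgeR adjusted p = 0.206), with all OcKO libraries above all Controls. Rpsa (ENSMUSG00000032518), the small subunit protein also known as the laminin receptor precursor, was at 108, 102 and 93.2 CPM in Control and 174, 127 and 180 CPM in OcKO. Its log2 fold change was 0.67 (SE 0.20, edgeR adjusted p = 0.249). For both genes OcKO replicate 2 was the lowest OcKO library and still above every Control.

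Rps24 (ENSMUSG00000025290), a small subunit protein whose loss, like that of Rps19, causes Diamond-Blackfan anaemia in people, was at 44.9, 43.0 and 57.1 CPM in Control and 63.7, 70.9 and 93.0 CPM in OcKO. The groups did not overlap (log2FC 0.65, SE 0.24, edgeR adjusted p = 0.369). Among the 15 genes of Diamond-Blackfan anaemia in the family, 10 were above 0 (50.8% of all genes), 5 had OcKO above all Controls (10.7% of all genes), and the median was 0.34.

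In the large subunit, Rpl15, Rpl7 and Rpl24 had the smallest p. Rpl15 (ENSMUSG00000012405), a protein of the core of the subunit, was at 47.5, 39.5 and 54.2 CPM in Control and 92.6, 64.1 and 83.9 CPM in OcKO (log2FC 0.77, SE 0.24, edgeR adjusted p = 0.273). Its exons overlap those of Nkiras1 on the other strand, and the library kit does not mark strand. Rpl7 (ENSMUSG00000043716), which binds the large ribosomal RNA, was at 87.5, 87.5 and 107 CPM in Control and 152, 138 and 123 CPM in OcKO (log2FC 0.55, SE 0.19, edgeR adjusted p = 0.312). Here OcKO replicate 3 was the lowest of the OcKO libraries, against the order seen in most members. Rpl24 (ENSMUSG00000098274), which forms a bridge to the small subunit, was at 22.7, 15.6 and 17.6 CPM in Control and 31.6, 29.7 and 43.8 CPM in OcKO (log2FC 0.91, SE 0.31, edgeR adjusted p = 0.313). For all 3 genes the groups did not overlap.

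Other members with OcKO above all Controls were Rps3, Rps16, Rps6, Rps27a, Rpl10a, Rpl6, Rpl7l1, Rpl26, Rpl4, Rpl30, Rpl10l and the pseudogene Rpl6l. Their log2 fold changes ran from 0.28 for Rps27a, which is made as a fusion with ubiquitin, to 1.65 for Rpl6l, with Rpl10l apart at 4.88. Rpl26 and Rpl23a lie on chromosome 11 within 20 Mb of Rpa1, at 6.42 and 2.86 Mb, and had log2 fold changes of 0.44 and 0.28, near the family's median.

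Rpl10l (ENSMUSG00000060499, chr12:66283379-66284401, minus strand) stood apart from the rest of the family. It is an intron-less copy of the X-linked Rpl10 that is known from the testis, where it serves while the X chromosome is silenced in meiosis. The Control libraries held 20, 0 and 0 of its counts and the OcKO libraries 93, 242 and 368, which is 0.551, 0 and 0 CPM against 2.12, 5.32 and 9.06 CPM. Counts were found in every OcKO library and in 1 Control library, and OcKO replicate 3 held 52.3% of the OcKO counts. The fitted log2 fold change was 4.88 (SE 1.92, edgeR adjusted p = 0.401), which did not pass. The ratio of the group means was 29.9. The fitted value moved to 10.80 without Control replicate 1, the Control library that held the counts, to 6.61 with voom and to 7.46 with the replicate block. Rpl10l passed the filter on low counts only through the OcKO libraries. Even in OcKO its level per length, 5.38 CPM per kb of transcript, was the lowest of the 82 tested members annotated as protein coding.

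Rpl10 itself (ENSMUSG00000008682), a protein that joins the large subunit late and completes it for translation, was at 151, 245 and 204 CPM in Control and 184, 158 and 250 CPM in OcKO. The groups overlapped throughout (log2FC -0.02, SE 0.25). The coding sequences of Rpl10 and Rpl10l are identical at 84.7% of 642 aligned bases, and the longest identical run is 23 bases. None of the 50-base windows of Rpl10l occurs in Rpl10, and 7.60% occur in any other gene, Gm14460. The stretch from coding base 334 to 393, in GENCODE transcripts, shows how the counts can be told apart. It was picked as the 60 aligned bases without gaps that differ most, so it is not typical. The 14 bases that differ are in capitals.
Rpl10: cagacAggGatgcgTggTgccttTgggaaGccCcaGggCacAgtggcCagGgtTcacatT
Rpl10l: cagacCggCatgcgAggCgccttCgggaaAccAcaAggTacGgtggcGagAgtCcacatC

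Rps27 and Rps27l differ more, with 76.2% of 252 coding bases identical and a longest identical run of 11 bases. Coding bases 4 to 63, just after the start codon, are shown, again picked as the stretch that differs most. Both members were higher in OcKO, and their reads must be separable for that statement to hold for each. The 19 bases that differ are in capitals.
Rps27: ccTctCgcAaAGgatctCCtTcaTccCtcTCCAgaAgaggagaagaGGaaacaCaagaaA
Rps27l: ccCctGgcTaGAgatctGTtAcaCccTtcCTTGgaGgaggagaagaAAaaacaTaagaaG
Other genes are the nearer copies of Rps27: 98.7% of its windows occur elsewhere, most of them in Rps27rt, against 22.4% of those of Rps27l.

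**Figure D3:**
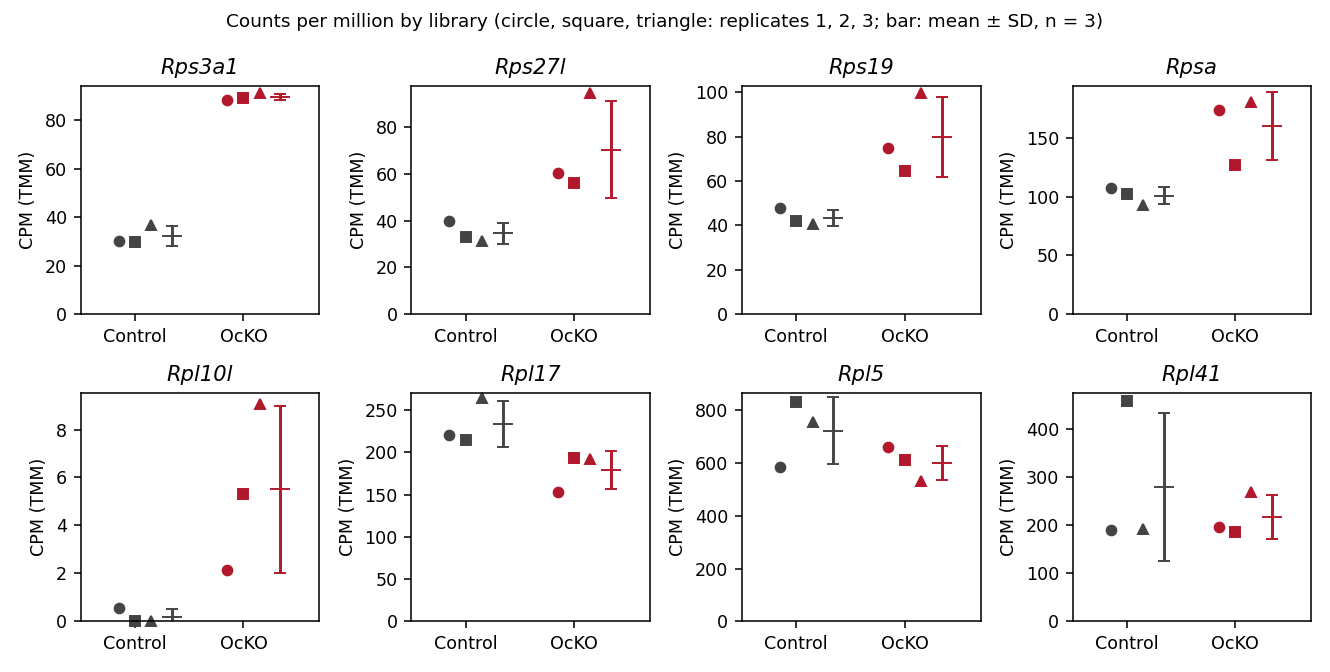
TMM-scaled CPM of 8 members in each library (circles, squares and triangles are replicates 1, 2 and 3), with the mean and SD of 3 libraries beside them; all axes start at 0. Rps3a1, Rps27l, Rps19, Rpsa and Rpl10l lie above all Controls in every OcKO library, Rpl17 lies below them, and Rpl5 and Rpl41 overlap.

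Paralogue and parent were set against each other in the same library, as the log2 of their count ratio after adding 0.5 to each. The 9 pairs with both members tested were compared by an exact two-sided permutation test, which cannot give a p under 0.1 with 3 against 3 libraries. For Rpl10l over Rpl10 the log2 ratio was -8.06, -14.18 and -13.79 in Control and -6.43, -4.88 and -4.79 in OcKO. The difference of 6.65 depends on what is added to the 0 counts of Control replicates 2 and 3, and was 4.37 with 5 added in place of 0.5 (exact permutation p = 0.1 for the main value, adjusted 0.45). For Rpl36al over Rpl36a, near-identical proteins from an intron-less autosomal copy and its X-linked parent, it was 1.51, 1.55 and 1.31 in Control and 1.79, 1.80 and 1.73 in OcKO. The difference of 0.32 was small but without overlap (exact permutation p = 0.1, adjusted 0.45). Both pairs reached the smallest p the design allows. Rpl10l entered this test only through its OcKO counts, so the separation and p of its pair are not independent of the filter.

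For the other pairs the libraries overlapped. Rps27l over Rps27 was 0.88, 0.15 and 0.05 in Control and 0.76, 0.75 and 0.72 in OcKO (difference 0.38, exact permutation p = 0.4). Control replicate 1 lay above every OcKO library and the other Control libraries below them all. Rpl39l over Rpl39, the paralogue at the tunnel exit that is enriched in male germ cells, was -1.17, -1.22 and -0.95 in Control and -0.90, -0.81 and -0.97 in OcKO (difference 0.22, exact permutation p = 0.2). Rpl39l had a mean of 44.7 ± 3.47 CPM over the Control libraries and of 44.0 ± 5.13 CPM over the OcKO libraries (SD, n = 3), with overlapping libraries, while those of Rpl39 did not overlap.

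Rpl7l1, a relative of Rpl7 tied to ribosome assembly, was at 27.4, 12.4 and 28.5 CPM in Control and 51.4, 33.6 and 37.3 CPM in OcKO, and its ratio to Rpl7 differed by 0.36 (exact permutation p = 0.6). Rpl22l1 was at 4.27, 6.64 and 5.36 CPM in Control and 7.26, 5.02 and 6.94 CPM in OcKO. Its parent Rpl22 was at 58.3, 30.9 and 23.2 CPM in Control and 50.8, 29.4 and 28.5 CPM in OcKO, with replicate 1 the highest in each group. Their ratio differed by 0.23 (exact permutation p = 0.8). Rps4l, annotated as a transcribed pseudogene, averaged 78.2 ± 25.5 CPM over the Control libraries and 72.7 ± 32.3 CPM over the OcKO libraries (SD, n = 3), and X-linked Rps4x at 208 ± 24.7 and 230 ± 35.2 CPM. None of these 3 pairs separated the groups. The ratios of Rps3a2 and Rps3a3 to Rps3a1 differed by -0.71 and -1.34 (exact permutation p = 0.9 and 0.2), and that of Rps3a2 by -1.11 with 5 added to each count (exact permutation p = 0.2). Rpl3, at the centre where peptide bonds form, was at 45.6, 27.3 and 43.6 CPM in Control and 61.4, 41.9 and 51.7 CPM in OcKO, while its muscle paralogue Rpl3l was not detected.

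**Figure D4:**
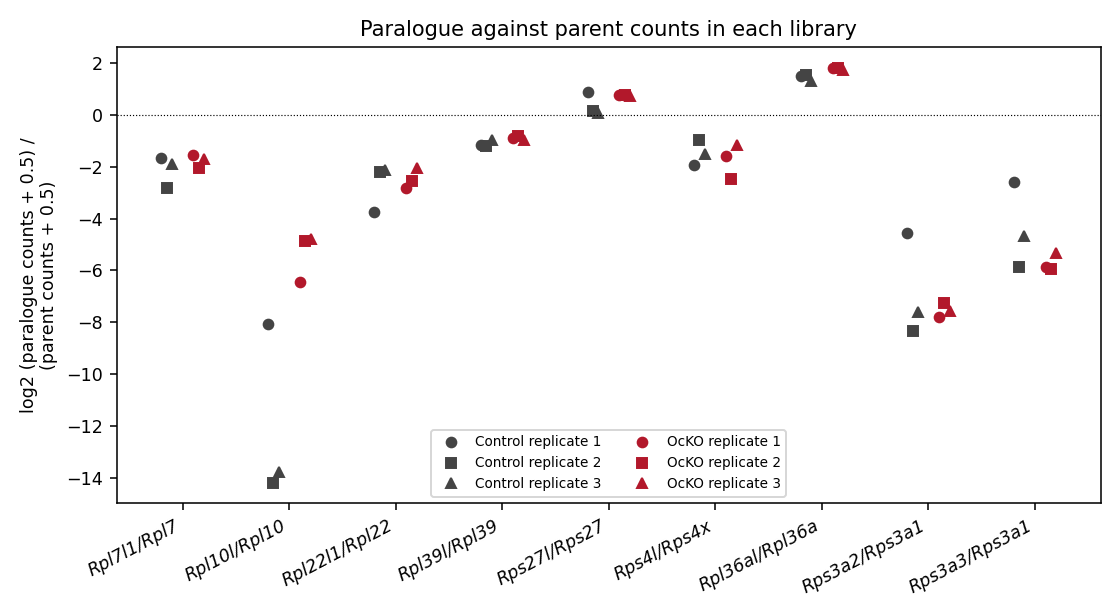
Log2 ratio of paralogue to parent counts (0.5 added to each) in every library for the 9 pairs tested; grey symbols are Control, red symbols OcKO, and shapes are replicates. Rpl10l over Rpl10 lies between -14.18 and -8.06 in Control and between -6.43 and -4.79 in OcKO, and the only other pair with no overlap is Rpl36al over Rpl36a.

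A minority of members went the other way. Rpl17 (ENSMUSG00000062328) was at 220, 215 and 264 CPM in Control and 153, 193 and 192 CPM in OcKO. Every OcKO library was below every Control (log2FC -0.38, SE 0.18, edgeR adjusted p = 0.506). Rpl39 (ENSMUSG00000079641), close to Rpl17 at the tunnel exit, was at 97.9, 97.8 and 94.1 CPM in Control and 78.7, 87.1 and 78.7 CPM in OcKO. The Control libraries were almost equal and all above OcKO (log2FC -0.25, SE 0.17, edgeR adjusted p = 0.700). Neither passed the test.

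Among the other members with values below 0 were 4 short transcripts of 271 to 499 bp, picked here after their values were seen. Their highest library was Control replicate 2, as it was for Rpl31 (487 bp, log2FC -0.01). Short members lay on both sides of 0: Rps27 (345 bp) and Rplp2 (421 bp) were at 0.64 and 0.28. Rps29 (ENSMUSG00000034892), a small zinc-binding protein of the head, was at 172, 296 and 153 CPM in Control and 129, 148 and 164 CPM in OcKO (log2FC -0.49, SE 0.27, and -0.12 without Control replicate 2). Rpl41 (ENSMUSG00000093674), the smallest protein of the ribosome, was at 191, 458 and 192 CPM in Control and 196, 187 and 270 CPM in OcKO. Its log2 fold change was -0.37 (SE 0.37) with all libraries and 0.21 without Control replicate 2. Rplp1 was at 126, 187 and 111 CPM in Control and 90.4, 92.0 and 146 CPM in OcKO (log2FC -0.37, and -0.09 without Control replicate 2). Rps28 was at 36.2, 106 and 50.4 CPM in Control and 49.97, 45.1 and 70.1 CPM in OcKO. Not all negative values depended on that library: Rps3a3 went from -0.40 to -0.85 without it, and Rps3a2 from -0.09 to -0.57. Over the 10 shortest members the median difference from the Control mean was 0.03, -0.25 and 0.36 in OcKO. In the Controls, each set against the mean of the other Control libraries, it was -0.16, 0.20 and -0.28.

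The stalk of the large subunit, which recruits translation factors, was not uniform. Rplp0, its base, was at 214, 203 and 291 CPM in Control and 316, 266 and 472 CPM in OcKO (log2FC 0.57, SE 0.26, edgeR adjusted p = 0.486). Control replicate 3 was above OcKO replicate 2, so the groups overlapped. Rplp2, which pairs with Rplp1 on the stalk, was at 61.4, 59.3 and 54.6 CPM in Control and 59.1, 54.5 and 99.1 CPM in OcKO, where OcKO replicate 3 alone was high. Its log2 fold change of 0.28 was -0.04 without that library. Rpl12, at the foot of the stalk, was at 30.0, 22.8 and 38.4 CPM in Control and 47.1, 24.2 and 54.3 CPM in OcKO (log2FC 0.46, SE 0.38), and its exons overlap those of Lrsam1 on the other strand.

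Rpl5 and Rpl11 carry the 5S ribosomal RNA into the large subunit and, when free, bind the p53 ligase MDM2. Rpl5 was at 583, 830 and 754 CPM in Control and 660, 611 and 530 CPM in OcKO, the highest level in CPM of the family. Its log2 fold change was -0.27 (SE 0.19, edgeR adjusted p = 0.703), with OcKO replicate 3 the lowest library, the reverse of most members. Exons of Rpl5 overlap those of Fam69a on the other strand, and 93.8% of its windows occur in other genes. Rpl11 was at 57.5, 77.6 and 72.5 CPM in Control and 41.4, 56.0 and 85.7 CPM in OcKO (log2FC -0.18, SE 0.31), overlapping between groups.

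Compared per length, levels within the family spread widely. The 82 protein coding members tested had a median of 82.2 CPM per kb of transcript in Control, from 0.180 for Rpl10l to 642 for Rpl41, and of 107 CPM per kb in OcKO. After Rpl41 came Rps29 at 531 CPM per kb and Rpl5 at 353 in Control. The low end next to Rpl10l held Rps20, a head protein, at 8.28 and Rpl13a at 9.16 CPM per kb. The Rps20 value rests on an annotated transcript of 3706 bp, the longest of the members, so its low rank depends on that transcript. Members with low Control levels tended to have the larger fold changes (Spearman's rho across 87 members -0.55), a description in which both quantities share the Control counts. Fold change and transcript length had a rho of 0.35 over 82 members, and fold change and the share of windows held by other genes a rho of -0.07 over 87. These are across genes of the same 6 libraries.

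Many ribosomal protein genes have processed copies in the genome. The table had 280 rows marked -ps for these genes, which summed to 113, 99.9 and 115 CPM in Control and 124, 128 and 177 CPM in OcKO. They were again highest in OcKO replicate 3. Among protein coding members, the 30 with under 50% of windows shared had a median log2 fold change of 0.31 and the 52 with 50% or more had 0.28. The part of copies in the members' counts was not tested.

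Short transcripts in general were also higher in OcKO. When tested genes with an annotated transcript length were split by that length into 5 groups of nearly equal size, the median log2 fold change was 0.12 in the shortest group (up to 1498 bp), 0.13, 0.05 and -0.05 in the next 3 and -0.19 in the longest. Of the 82 members with a length, 76 were in the shortest group, and the median of the 82 was 0.28. In OcKO replicate 3 the median difference from the Control mean was 0.20 in the shortest group and -0.23 in the longest, against 0.55 over the members. The part of transcript length in the members' shift was not tested. Among the members themselves the relation of length to the difference varied by library, with a Spearman's rho of -0.39 in Control replicate 2, 0.50 in Control replicate 3 and 0.24 to 0.34 in OcKO.

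**Figure D5:**
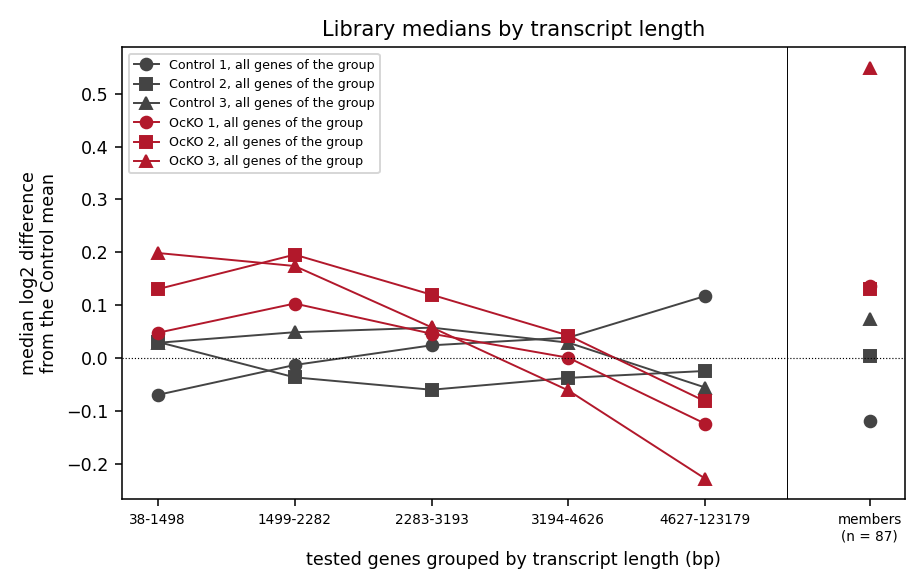
Median log2 difference from the Control mean for all tested genes in 5 groups by transcript length (points joined by lines, 1 line per library) and, at the right, for the 87 tested members. For a Control library the mean is that of the other Control libraries. In OcKO replicate 3 the line goes from 0.20 in the shortest group to -0.23 in the longest, and its member median of 0.55 lies above every group.

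Genes that make ribosomes or belong to the same messages were read from lists. In none of them was a gene called by edgeR in either direction. The counts given for them are at an unadjusted edgeR p under 0.05, which 5.93% of all tested genes reached on the higher and 5.21% on the lower side, and 50.8% of all genes were above 0. Of 53 large subunit assembly factors tested, 8 were higher (5.93% of all genes) and 0 lower (5.21%), and the median log2 fold change was 0.19. Ddx56, an RNA helicase of that list, was at 163, 155 and 135 CPM in Control and 339, 276 and 318 CPM in OcKO (log2FC 1.04, SE 0.17, edgeR adjusted p = 0.109). Of 39 small subunit assembly factors, 3 were higher and 0 lower, a share near that of all genes (5.93% higher), with a median of 0.10. Tbl3, part of the complex that processes the small subunit RNA, differed by a log2FC of 0.82 (SE 0.23, edgeR adjusted p = 0.230). Set beside these medians, that of all genes was 0.01 and that of the members 0.28; the differences between lists were not tested.

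Of 11 snoRNP proteins, which guide the modification of ribosomal RNA, 2 were higher and 0 lower, against 5.93% and 5.21% of all genes (median 0.24). Nop56, a core protein of this group, was at 148, 147 and 109 CPM in Control and 215, 211 and 226 CPM in OcKO (log2FC 0.69, SE 0.18, edgeR adjusted p = 0.195). Of 14 genes of RNA polymerase I and its factors, 2 were higher and 0 lower (median 0.27), with Polr1c, a subunit shared with polymerase III, at 1.87 (SE 0.65, edgeR adjusted p = 0.325). Of 10 dedicated chaperones of ribosomal proteins, 2 were higher and 0 lower (median 0.35), with Aamp at 1.27 (SE 0.25, edgeR adjusted p = 0.120). Each of these 3 genes was the one of its list with the smallest p, and none passed.

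Of 21 other messages with a TOP tract, 4 were higher and 0 lower, against 5.93% and 5.21% of all genes. For 18 of them the log2FC was above 0, against 50.8% of all genes, and the median was 0.29; its difference from the members was not tested. Pabpc1, the poly(A) binding protein, was at 3.70, 16.3 and 14.0 CPM in Control and 40.8, 24.2 and 73.8 CPM in OcKO (log2FC 2.03, SE 0.64, edgeR adjusted p = 0.274). The 16 regulators of TOP messages and ribosome synthesis had a median of -0.22, with 2 higher and 2 lower. Cnbp, a zinc finger protein that binds TOP tracts, had the smallest p of them (log2FC 0.79, SE 0.21, edgeR adjusted p = 0.191). The 78 mitochondrial ribosomal proteins, which build a separate ribosome, had a median of 0.22, with 61 above 0 (50.8% of all genes), 3 higher (5.93% of all) and 0 lower (5.21%). Mrpl50 was at 4.00, 8.89 and 9.02 CPM in Control and 28.9, 20.5 and 16.5 CPM in OcKO (log2FC 1.59, SE 0.48, edgeR adjusted p = 0.252).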

How the data were processed

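RNA-seq of GV oocytes gave 1 library per mouse, 3 Control and 3 OcKO. The authors deposited whole-number counts of reads per gene, not normalized. Per the submitters' processing notes, the tools were Trimmomatic 0.36, STAR 2.5.2b and featureCounts of Subread 1.5.2 on GRCm38; annotation release, strand setting and treatment of reads with several matches were not given in the sources used here.

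Counts were tested with edgeR 4.0.16 (quasi-likelihood, TMM, filterByExpr, R 4.3.3), with Benjamini-Hochberg adjustment over 16060 genes and calls under 0.05. CPM are TMM-scaled, with some exceptions that use library totals. These are the cell type markers and their sums, the sums of -ps rows and the member sums given before TMM scaling. SE is the size of the log2FC divided by the square root of the F statistic. Library differences used log2(CPM + 0.5). OcKO libraries were set against the mean of the Control libraries, and each Control library against the mean of the other Control libraries. The edgeR fit was tried on simulated counts with a common dispersion for all genes and changes far larger than the members' median. That setting does not show how well shifts as small as that median are found. Gene types, coordinates, transcript lengths (principal transcript) and shared 50-base windows came from GENCODE M21 on GRCm38, and promoters from RefSeq. Alternatives were other scalings, DESeq2 1.42.0, voom of limma 3.58.1, other filters, a replicate block and libraries left out.

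Members and lists were chosen with earlier results of these data known, so no p over the members is given. The members described in full are the 10 with the smallest p, the 5 most negative, paralogue pairs, stalk and 5S proteins and the extremes per length, and in each list of other genes the 1 with the smallest p; some genes picked by this rule are not reported here. Rps28, Rpl31, Rps20, Rpl13a and the members listed as above all Controls were chosen after their values were seen. No pair of libraries within a group was a duplicate (chi-square per degree of freedom at least 114.5). Labels name separate mice but no batch.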

Additional observations from a re-analysis of the deposited data

How the results depend on the processing

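The number of members called by edgeR was 0 in the main fit under TMM scaling, where 0.143% of all tested genes were called. It was 1 (Rps3a1) with library size alone or a minimum mean of 5 CPM. DESeq2 called 7, all higher, where it called 4.39% of all genes higher and 2.24% lower. Voom called 0 members and 0.00623% of all genes. Each of the 6 fits without 1 library, DESeq2 size factors in edgeR, the fit without a filter and the replicate block called 0. Apart from the main fit, DESeq2 and voom, these counts have no share of all genes called to be set against. The median log2 fold change of the members ranged from 0.11 (without OcKO replicate 3) to 0.46 (library size alone), large and small subunit genes moved together, and every alternative kept the direction. TMM scaling moved the sums of Control replicates 2 and 3 from 7094 and 7038 to 7745 and 7424 CPM, and that of OcKO replicate 3 from 10954 to 9782 CPM. Members above all Controls numbered 34 with library size alone, against 14.6% of all genes, and 37 without OcKO replicate 2, against 17.6%. Members below them numbered 1 with library size alone, against 5.21% of all genes, and 11 without OcKO replicate 3, against 12.7%. These counts under other settings and the median by shared windows were added after seeing the data. Leaving out each OcKO library gave ranges of 23 to 37 above and 2 to 11 below. Over all genes the shares ran from 15.5% to 17.6% above and from 11.8% to 14.4% below.

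Of the 32 named members, 23 kept their sign in every alternative that could be fitted. Library size alone turned Rpl10 (0.17), Rpl22 (0.11), Rpl39l (0.14), Rps4l (0.095), Rps3a2 (0.054) and Rpl11 (0.0085). A minimum of 5 CPM turned Rpl10 (0.0076) and Rpl39l (0.0042), and voom turned Rps3a3 (0.15), Rpl22 (0.0084) and Rps3a2 (0.79). Libraries left out gave log2 fold changes from -0.85 to 0.83 for Rps3a3, -0.59 to 0.21 for Rpl41, -0.23 to 0.18 for Rpl10, -0.38 to 0.42 for Rpl22, -0.086 to 0.058 for Rpl39l, -0.52 to 0.18 for Rps4l, -0.57 to 1.89 for Rps3a2, -0.043 to 0.48 for Rplp2 and -0.51 to 0.026 for Rpl11. With libraries left out, differences in paralogue ratios ran from -0.30 (without Control replicate 1) to 0.53 for Rpl22l1 over Rpl22, from -0.57 to 0.095 (without OcKO replicate 2) for Rps4l over Rps4x and from -1.46 to 0.44 (without Control replicate 1) for Rps3a2 over Rps3a1. For all of these the cause was not tested.

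Deviations from the group means of same-numbered libraries correlated at -0.05, -0.03 and -0.07, no library correlated best with its own number, and they share only a number. The replicate block called 0 members, left the median at 0.28 and gave 0.19 for Rps3a3, 0.0094 for Rpl22 and 0.89 for Rps3a2; Rps3a1 was at 1.49 with an edgeR adjusted p of 0.481. At these depths Rpl10l, Rps3a2, Rps3a3, Rpl6l and Rpl32l rest on few counts.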
